A study of Mus musculus with 24 samples.

Results

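The enzymes that burn fatty acids in mitochondria were followed in differentiating mouse brite adipocytes after knockdown of the long noncoding RNA Ctcflos. The 30 member genes were listed by name and run from fatty acid activation to electron transfer. All 30 symbols were found among the 52089 symbols of the deposited table. Each was represented by its RefSeq mRNA entry with the highest mean level over the 24 libraries. Levels are RPKM (reads per kilobase of transcript, scaled to a fixed number of mapped reads), rescaled between libraries as described with the processing.

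The cells were primary preadipocytes from the stromal vascular fraction of inguinal white fat of 129SvEv mice. All groups went through 2 days of induction and 1 further day of differentiation with rosiglitazone, a PPARγ agonist that drives white fat precursors towards the heat-producing brite state. They were then reverse transfected with an LNA gapmer at 50 nM, a short antisense oligomer with locked nucleic acid ends through which RNase H cuts the matching RNA. The gapmer targeted Ctcflos (KD, knockdown) or was nontargeting (NC), and cells were harvested 24 h or 72 h later, which gave KD and NC groups at both times (KD 24 h, KD 72 h, NC 24 h, NC 72 h) of 6 libraries each. The study calls its replicates biological, but the labels do not say which libraries came from separate cultures or animals, so p-values measure the spread between these samples, which may be technical.

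Mitochondrial fatty acid oxidation starts with a fatty acid being joined to coenzyme A, after which the carnitine shuttle carries long chains through the inner mitochondrial membrane. In the matrix a cycle of dehydrogenation, hydration, a further dehydrogenation and thiolytic cleavage releases acetyl-CoA, and the electron-transferring flavoprotein passes electrons from the first step to ubiquinone. Brown and brite adipocytes rely on this pathway to fuel heat production through uncoupling protein 1, and nuclear receptors of the PPAR and oestrogen-related receptor families with the coactivator PGC-1α are known to control its genes.

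Promoter sequences show which of the members carry the letters that such receptors recognise. RefSeq promoters (GRCm38.p6) were matched by symbol for 25 of the 30 members (not for Acaa2, Acad9, Acat1, Acot13 and Decr1), and the 250 bases before the start were searched on both strands. The nuclear receptor half-site AGGTCA was present in 4 of 25 members (16%) and in 15.8% of 27025 genes. Windows of 30 bases around these 4 sites are shown in the direction of the gene, with the half-site or its reverse complement in capitals.
Acadm, chr3:153944864-153944893, minus strand: gTGACCTtcgggctccggtgacactgggca
Acadvl, chr11:70015498-70015527, minus strand: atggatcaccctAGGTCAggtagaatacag
Cpt1a, chr19:3323195-3323224, plus strand: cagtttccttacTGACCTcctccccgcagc
Echs1, chr7:140116487-140116516, minus strand: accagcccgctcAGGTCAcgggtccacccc
The sites began 249, 87, 94 and 83 bases before the start of Acadm, Acadvl, Cpt1a and Echs1. The extended element TCAAGGTCA, which contains the half-site, was found in 0 of 25 members and 0.422% of genes, and a direct repeat of the half-site with 1 base between the copies in 0 members and 0.0407% of genes. A GC box (GGGCGG) was found in 16 of 25 members (64%) and 35.4% of genes, and a CCAAT box (CCAAT) in 13 of 25 members (52%) and 37.5% of genes. A match describes the letters of the window and does not show that a factor binds there.

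Hadha and Hadhb encode the partner subunits of the mitochondrial trifunctional protein and are transcribed away from each other. Their RefSeq starts lie at positions 30154980 (Hadha, minus strand) and 30155253 (Hadhb, plus strand) of chromosome 5, with 272 bases between them. The 68 bases of this interval that lie in the promoter windows of both genes and outside the gene bodies of both in the GENCODE annotation as well are shown on the plus strand of chromosome 5, since the levels of the pair are compared directly further on.
Hadha and Hadhb, chr5:30155163-30155230: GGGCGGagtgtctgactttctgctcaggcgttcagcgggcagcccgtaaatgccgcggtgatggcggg
The stretch was 66.2% G or C and held 1 GC box, which is in capitals.

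The libraries held 1391829 to 5926362 mapped reads, with a median of 4009990, so that 3 reads of a transcript of 2 kb were worth 0.25 to 1.08 RPKM. NC 72 h replicates 2 and 3 differed by less than the sampling noise and were counted as 1 sample, which leaves 5 samples in NC 72 h. In replicate 6 of NC 72 h, 14.9% of low read numbers were odd, whereas this share was 53.7% to 55.5% elsewhere. This library also gave the total of 5926362 reads and the value of 0.25 RPKM. As most of its low read numbers were even, its depth in single reads is uncertain. After the group means were removed, 16 libraries resembled each other (the larger cluster) and the remaining 8, 2 from every group, formed a second set (the smaller cluster). Ctcflos itself reached a mean of 0.189 RPKM in KD 24 h and 0.741 in NC 24 h (exact permutation p = 0.045), and 0.231 in KD 72 h and 1.23 in NC 72 h (exact permutation p = 0.0022). Its groups overlapped at 24 h, with 0 to 0.620 RPKM in KD and 0.178 to 1.38 in NC. At 72 h they were separate, with 0 to 0.517 in KD and 0.886 to 1.75 in NC. These levels are worth few reads. Adipocyte markers were high in every library, with summed levels of 24402 to 51273 RPKM over 7 genes. Fabp4 made up most of these sums, with a mean of 36825 RPKM on the deposited scale, and Adipoq followed with 1826. The sums stayed at or below 3.03 RPKM for endothelial, 1.56 for epithelial and 2.44 for liver markers, while fibroblast and progenitor markers summed to 670 to 1796 RPKM, macrophage markers to 2.85 to 31.9 and skeletal muscle markers to 0.976 to 34.7. Means under 3 reads were found in 6 of 6 epithelial, 4 of 6 endothelial, 4 of 8 macrophage and 4 of 5 skeletal muscle markers.

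The members spanned a wide range of levels. Etfb averaged 849 scaled RPKM over all samples, followed by Acaa2 with 709.8, Hadh with 590.5 and Acot2 with 439, and these 4 genes took 51.9% of the summed level of the 30 members. In all, 15 members averaged over 100 RPKM and 10 less than 20. The reads came from the 3′ ends of transcripts, so dividing by transcript length does not make the levels of genes comparable as molecule numbers, and the order is given only on the RPKM scale. Acss1, which activates acetate in mitochondria, was listed at 0 in all 24 libraries and was not tested.

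At 24 h, 11 of the 29 fatty acid oxidation genes tested fell after Ctcflos knockdown and 0 rose. This was 37.9% of the members, against 22.8% of all 11111 genes tested called in either direction and 11.6% called lower. The median log2 fold change was -0.32 over the members and -0.01 over all genes, and 25 of the 29 values were negative. Among the 4 positive values, 1 had an unadjusted p under 0.05 by limma (Mlycd). Every KD 24 h library lay below every NC 24 h library in 6 members (Acsl1, Acsl4, Hadha, Hadh, Acaa2 and Acot13), a pattern seen in 7.04% of all genes. In bulk RNA, fewer cells of a type and less RNA per cell cannot be told apart. Adipocyte markers were also lower, with 3 of 7 called lower and summed levels of 35434 to 48622 RPKM in KD 24 h against 48727 to 51273 in NC 24 h. Fabp4, which made up most of these sums, was not called (-0.18 ± 0.11, adjusted p = 0.24). Per 100 RPKM of the adipocyte markers the members summed to 7.29, 10.6 and 12.5 RPKM in KD 24 h and 11.0, 11.8 and 12.3 in NC 24 h (lowest, median and highest library), and the groups overlapped on this measure. It sets the members mainly against Fabp4. The macrophage marker Csf1r was the 1 marker of another cell type called at 24 h, where it rose by 1.22 ± 0.27 (adjusted p = 0.0061). Of the 3 macrophage markers tested, the other 2 were negative and not called. Lyz2 gave -2.41 ± 0.96 (adjusted p = 0.083) and Cd14 gave -0.78 ± 0.65 (adjusted p = 0.4).

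At 72 h, 18 of 29 tested members fell (62.1%, against 12.9% of 11576 genes called lower) and 1 rose (against 10.3% called higher), while 23.2% of all genes were called in either direction. The median log2 fold change was -0.49 over the members and -0.01 over all genes, with 24 of 29 negative. In 13 members every KD 72 h library lay below every NC 72 h sample, as in 8.37% of genes. These were Acsl1, Acadm, Acad9, Acad11, Hadha, Echs1, Hadh, Acaa2, Acat1, Etfa, Etfb, Etfdh and Acot13. Adipocyte markers moved too, with 5 of 7 called lower and sums of 24402 to 33675 RPKM in KD 72 h against 35296 to 46501 in NC 72 h. Fabp4, which made up most of these sums, fell by 0.58 ± 0.13 (adjusted p = 0.0057). The members summed to 12.4, 13.8 and 15.3 RPKM per 100 RPKM of adipocyte markers in KD 72 h and to 13.0, 14.8 and 16.1 in NC 72 h, and the groups overlapped. This measure again sets the members mainly against Fabp4. Of the markers of other cell types, Cd34 (progenitors) and Csf1r (macrophages) rose at 72 h by 2.02 ± 0.37 and 1.23 ± 0.25, and Col3a1 (fibroblasts) fell by 0.68 ± 0.20, Lyz2 (macrophages) fell by 3.68 ± 0.59 and Acta1 (skeletal muscle) fell by 1.75 ± 0.53. Cd34 reached 10 reads in 6 of 6 KD 72 h and 0 of 6 NC 72 h libraries and Lyz2 in 1 of 6 KD 72 h and 6 of 6 NC 72 h libraries, so that each passed the filter through the group in which it was high. The part of the markers in these results was not tested. Without NC 72 h replicate 6 the count of called members was 15.

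The 72 h counts differed between the scalings. On the deposited scale the median of all genes was shifted by 0.24 (log2) at 72 h, the median of the members was -0.24, and 9 members fell and 2 rose (Acot1 and Cpt1a). The members Acadm, Hadh, Acot13, Etfdh, Echs1, Etfa, Acad11, Acaa2 and Hadha were lower on both scales, whereas Acsl1, Acat1, Acad9, Etfb, Cpt2, Acadvl, Hadhb, Acadl and Eci2 lost their call (adjusted p = 0.052 to 0.78) and the values of Acsl4, Acsl5 and Decr1 changed sign. At 24 h the shift was 0.05, 9 members fell on the deposited scale and Acsl3 and Acadl changed sign. The share of all genes called on the deposited scale is not given here, so the member counts on it have no background at either time.

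**Figure D1:**
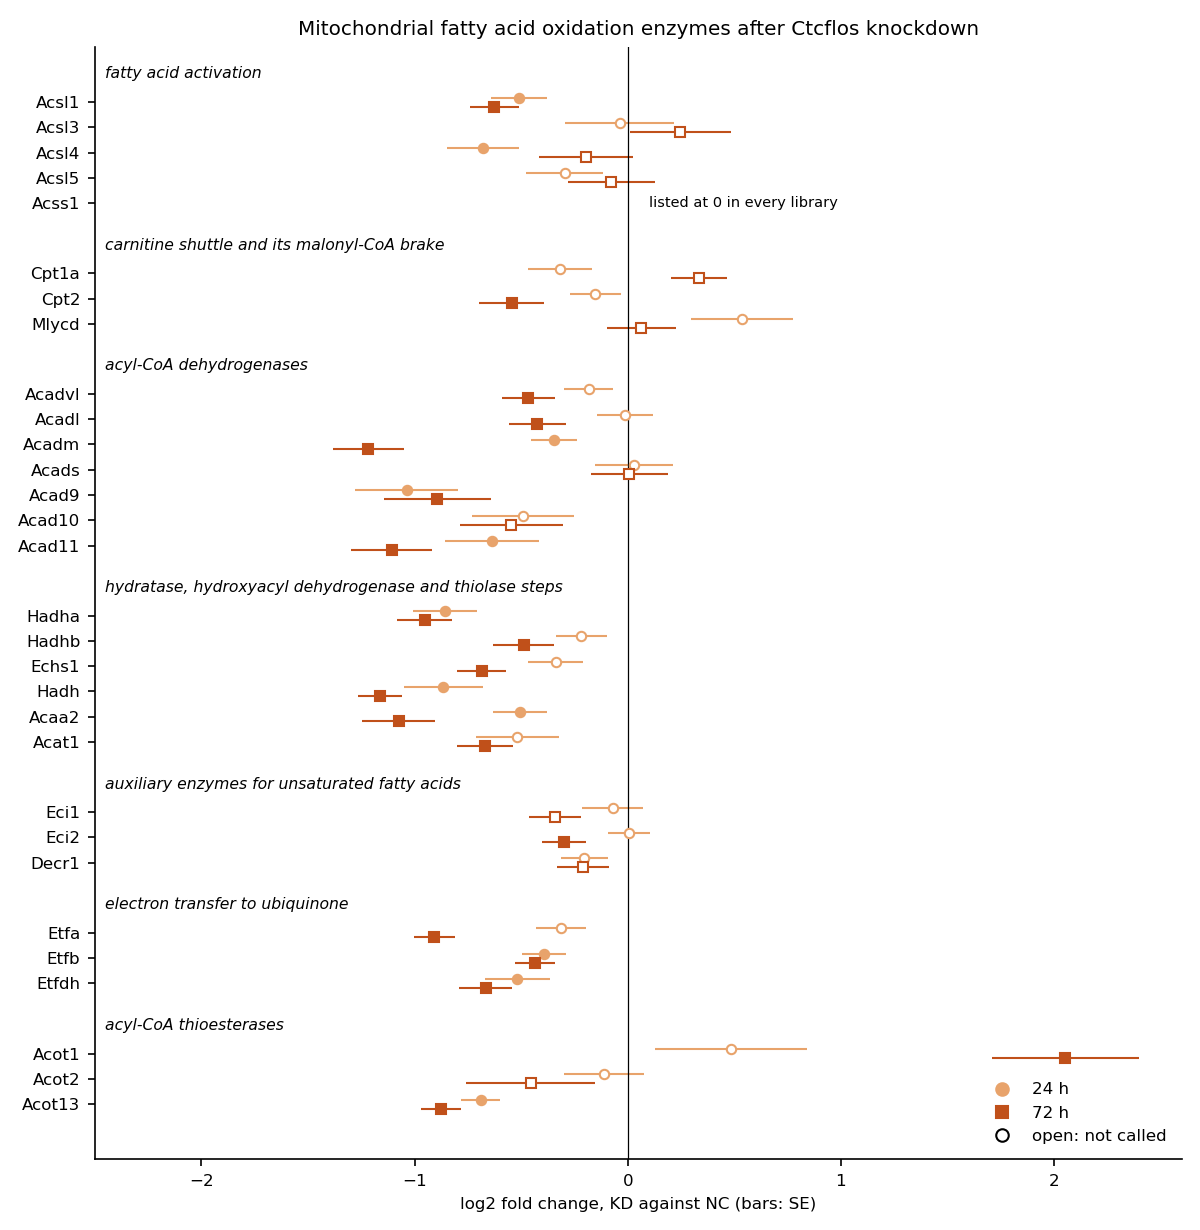
Log2 fold change of KD against NC (x axis, bars are SE) for each member, grouped by its step in the pathway, at 24 h (circles) and 72 h (squares); filled symbols passed an adjusted p of 0.05 and open symbols did not. At 72 h the 18 called members left of 0 include all 6 of the hydratase, hydroxyacyl dehydrogenase and thiolase steps and all 3 electron transfer genes, and Acot1 stands alone on the right at 2.05.

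For single members, levels are scaled RPKM and are given as the lowest, the median and the highest library of a group. For NC 72 h the 5 values are given in the order replicate 1, the mean of replicates 2 and 3, and replicates 4, 5 and 6. Adjusted p-values are those of limma over all entries of the table. The counts of genes that fell in each step stand against 11.6% of all genes called lower at 24 h and 12.9% at 72 h. Several calls depend on the scaling, as given above.

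Fatty acids are activated by the long-chain acyl-CoA synthetases. Acsl1, the main form of adipocytes, measured 334, 349 and 395 in NC 24 h and 194, 227 and 326 in KD 24 h. At 72 h the NC samples held 330.4, 298, 247, 274 and 336 and KD 168, 178 and 239. The groups did not overlap at either time, and Acsl1 fell by 0.51 ± 0.13 (log2, SE) at 24 h (adjusted p = 0.013) and by 0.63 ± 0.12 at 72 h (adjusted p = 0.0018). Acsl4, which prefers arachidonic acid, read 82.5, 83.5 and 89.4 in NC 24 h and 32.7, 48.9 and 75.7 in KD 24 h, without overlap (log2 fold change -0.68 ± 0.17, adjusted p = 0.011). At 72 h it was not called (-0.20 ± 0.22, adjusted p = 0.56), with 81.4, 86.9, 77.3, 75.8 and 70.8 in NC and 40.1, 82.0 and 93.5 in KD. The KD 72 h libraries of Acsl4 disagreed with each other: 2 lay below and 2 above every NC sample. Its entries disagreed too: of 7 tested at 72 h, 1 was called higher, with values from -0.23 to 0.74 and a median of -0.20. Acsl3 and Acsl5, both at levels under 10 RPKM, gave log2 fold changes of -0.04 and -0.30 at 24 h and 0.25 and -0.08 at 72 h, none of them called.

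In the carnitine shuttle 0 of 3 genes were called at 24 h and 1 of 3 at 72 h. Cpt1a, the outer membrane carnitine palmitoyltransferase that commits fatty acids to the mitochondrion, gave -0.32 ± 0.15 at 24 h (adjusted p = 0.14) and 0.34 ± 0.13 at 72 h (adjusted p = 0.079). Its levels were 10.6, 9.22, 8.41, 7.75 and 7.97 in NC 72 h and 9.84, 10.9 and 12.8 in KD 72 h, and 4 of 6 KD libraries lay above every NC sample. Cpt2, the inner membrane partner, fell at 72 h by 0.54 ± 0.15 (adjusted p = 0.019), from 124, 98.3, 109, 112 and 123 in NC to 57.2, 73.0 and 107 in KD, with overlap in 2 KD libraries, and gave -0.15 at 24 h, not called. Mlycd degrades malonyl-CoA, the inhibitor of Cpt1a. It was the 1 member with a higher value and an unadjusted p under 0.05 at 24 h (0.53 ± 0.24, adjusted p = 0.12), with 14.7, 21.4 and 49.5 in KD 24 h against 12.8, 17.8 and 20.7 in NC 24 h, and 5 of 6 KD libraries lay above every NC library. At 72 h its value was 0.06.

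The acyl-CoA dehydrogenases catalyse the first step of each cycle and differ in the chain length they prefer. Of 7 genes, 3 fell at 24 h and 5 at 72 h. Acadm, the medium-chain enzyme, measured 264, 218, 251, 259.7 and 288 in NC 72 h and 82.7, 99.4 and 174 in KD 72 h. The groups were separate, and the log2 fold change of -1.22 ± 0.17 was the lowest among the members at 72 h (adjusted p = 0.00022). At 24 h the levels were 210.3, 247 and 271 in NC and 163, 190.3 and 230.3 in KD, a log2 fold change of -0.35 ± 0.11 (adjusted p = 0.03) in which 5 of 6 KD libraries lay below every NC library. This 24 h call was lost when any 1 of 7 libraries was left out (KD 24 h replicates 1, 2 and 5 and NC 24 h replicates 1 to 4).

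Acadvl and Acadl, the very-long-chain and long-chain enzymes, were not called at 24 h (-0.18 and -0.01) and fell at 72 h by 0.47 ± 0.12 (adjusted p = 0.016) and by 0.42 ± 0.13 (adjusted p = 0.036). Acadl lost this call without any 1 of 6 libraries (KD 72 h replicates 1 to 4, NC 72 h replicates 1 and 6). Acads, the short-chain enzyme, gave 0.03 and 0.01 and was not called.

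Acad9 acts on long chains and is also known as an assembly factor of respiratory complex I. It was low throughout, at 2.74, 4.22 and 5.49 in NC 24 h and 1.16, 2.00 and 2.79 in KD 24 h, yet its log2 fold change of -1.04 ± 0.24 was the lowest among the members at 24 h (adjusted p = 0.0084). The NC 72 h samples held 2.54, 2.65, 2.65, 2.78 and 5.42 and KD 72 h 1.25, 1.45 and 2.37, a log2 fold change of -0.89 ± 0.25 (adjusted p = 0.02). The groups at 72 h did not overlap, but replicate 6 stood apart in NC 72 h, and without it the adjusted p was 0.051. Acad11, a less studied member of the family, read 10.8, 15.5 and 17.6 in NC 24 h and 6.07, 9.12 and 14.5 in KD 24 h (log2 fold change -0.64 ± 0.22, adjusted p = 0.049). Its 72 h levels were 24.9, 16.1, 17.0, 16.9 and 19.4 in NC and 6.57, 8.02 and 12.1 in KD (log2 fold change -1.11 ± 0.19, adjusted p = 0.001). The groups overlapped at 24 h, where leaving out any 1 of 8 libraries ended the call (KD 24 h replicates 1, 2 and 5 and NC 24 h replicates 2 to 6), and were separate at 72 h. Acad10 gave -0.49 (adjusted p = 0.15) and -0.55 (adjusted p = 0.12), below the NC median in 6 of 6 KD libraries at each time but not called.

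The hydratase, hydroxyacyl dehydrogenase and thiolase steps were lower at every gene at 72 h. Of the 6 genes, 3 fell at 24 h and 6 at 72 h. Hadh, the matrix hydroxyacyl-CoA dehydrogenase for short and medium chains, was among the most abundant members, with 731, 823 and 867 in NC 24 h and 245, 447 and 672 in KD 24 h. At 72 h NC samples held 863, 776, 616, 752 and 857 and KD libraries 314, 336 and 389. No KD value reached an NC value at either time, and Hadh fell by 0.87 ± 0.18 at 24 h (adjusted p = 0.0051) and by 1.16 ± 0.10 at 72 h (adjusted p = 7.9e-06). Hadha, which carries the hydratase and hydroxyacyl dehydrogenase activities of the trifunctional protein, measured 109, 122 and 135 in NC 24 h and 44.7, 70.6 and 86.8 in KD 24 h. The 72 h levels were 164, 145, 125, 130.5 and 145 in NC and 59.3, 68.1 and 97.2 in KD. Again the groups were separate at both times, with log2 fold changes of -0.86 ± 0.15 (adjusted p = 0.0019) and -0.95 ± 0.13 (adjusted p = 0.0002).

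Hadhb, the thiolase subunit of the same protein, changed less. It measured 186, 217 and 245 in NC 24 h and 134, 194 and 217 in KD 24 h and was not called (-0.22 ± 0.12, adjusted p = 0.19). At 72 h it fell by 0.49 ± 0.14 (adjusted p = 0.023), from 344, 296, 278, 278 and 369.5 in NC to 182, 199.8 and 298 in KD, with overlap in 2 libraries. Leaving out KD 72 h replicate 1 or 3 or NC 72 h replicate 1 or 6 ended this call. Acaa2, the main matrix thiolase, read 672, 761 and 817 in NC 24 h and 347, 575 and 612 in KD 24 h (log2 fold change -0.51 ± 0.13, adjusted p = 0.012). Levels at 72 h were 1246, 1128, 968, 902 and 1191 in NC and 398, 442 and 772 in KD (log2 fold change -1.07 ± 0.17, adjusted p = 0.00065). Neither time showed overlap between the groups. Echs1, the short-chain enoyl-CoA hydratase, held 308, 277, 232, 229 and 288 in NC 72 h and 139, 163 and 211 in KD 72 h, without overlap, and fell by 0.68 ± 0.11 (adjusted p = 0.00086). Its 24 h value was -0.34 ± 0.13 (adjusted p = 0.072). Acat1, the acetoacetyl-CoA thiolase that also serves ketone body and isoleucine breakdown, gave -0.52 ± 0.19 at 24 h (adjusted p = 0.065). Acat1 fell at 72 h by 0.67 ± 0.13 (adjusted p = 0.0025), again without overlap.

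**Figure D2:**
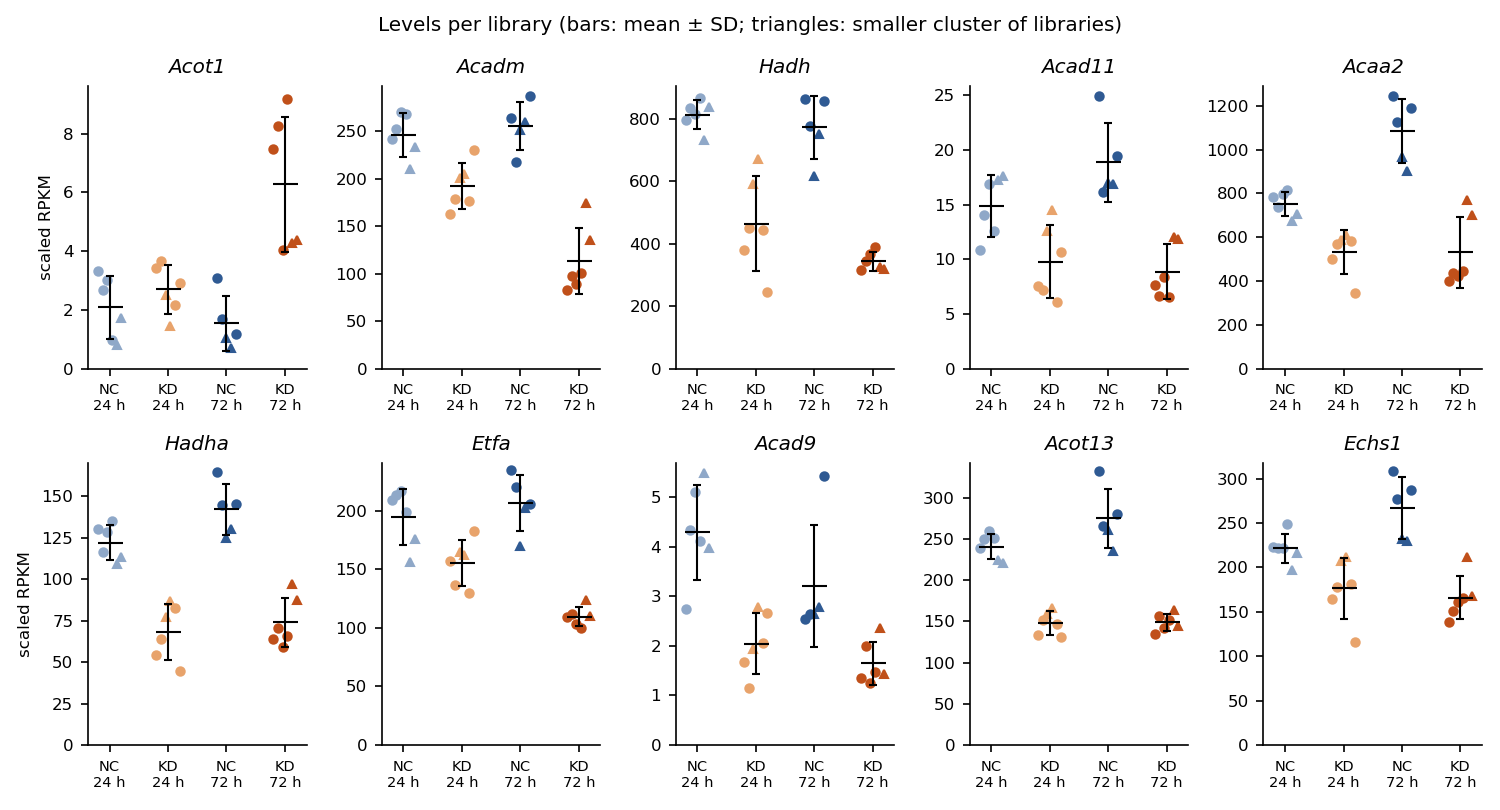
Scaled RPKM (y axis, from 0) of the 10 called members with the largest change at 72 h, in NC 24 h, KD 24 h, NC 72 h and KD 72 h; points are samples, triangles are libraries of the smaller cluster, and bars give the mean ± SD (n = 6, and n = 5 in NC 72 h). The 6 KD 72 h points of Hadh lie between 314 and 389 while the 5 NC 72 h points start at 616, and those of Acot1 all lie above every NC 72 h point.

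The subunits of the trifunctional protein were compared directly, since a ratio within a library does not depend on the scaling. The log2 ratio of Hadha to Hadhb averaged -0.83 in NC 24 h, between -0.93 and -0.75, and -1.47 in KD 24 h, between -1.64 and -1.26. At 72 h it averaged -1.14 in NC, between -1.35 and -1.03, and -1.60 in KD, between -1.70 and -1.51. The KD libraries were separate from the NC libraries at both times. The difference was -0.64 at 24 h (two-sided exact permutation p = 0.0022, 0.0043 after Benjamini-Hochberg adjustment over 4 ratio comparisons) and -0.47 at 72 h (exact permutation p = 0.0022, adjusted 0.0043). In the larger and smaller clusters alone the direction was the same, and the smaller cluster gave -0.52 at 24 h and -0.54 at 72 h.

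**Figure D3:**
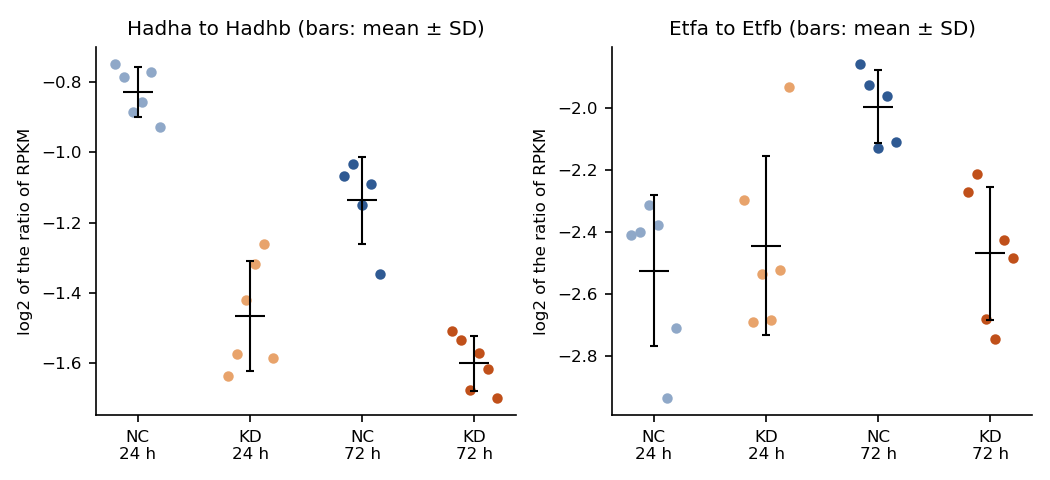
Log2 ratio of the RPKM of partner genes (y axis) per sample in the 4 groups, for Hadha to Hadhb (left) and Etfa to Etfb (right); bars give the mean ± SD. The KD points of Hadha to Hadhb lie below the NC points at 24 h and 72 h, whereas those of Etfa to Etfb overlap with NC at 24 h and lie below NC at 72 h.

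Electron transfer to ubiquinone runs through a flavoprotein of the subunits Etfa and Etfb and its membrane-bound dehydrogenase Etfdh. At 24 h 2 of 3 genes fell, and at 72 h 3 of 3. Etfa measured 234, 220.4, 170.0, 202 and 206 in NC 72 h and 99.6, 109.8 and 123 in KD 72 h, separate groups with a log2 fold change of -0.91 ± 0.10 (adjusted p = 2.9e-05). At 24 h its value was -0.31 ± 0.12 (adjusted p = 0.064). Etfb, the most abundant member on the RPKM scale, read 1033, 1119 and 1198 in NC 24 h and 695, 826 and 1040.0 in KD 24 h, and 849, 836, 743, 788 and 887 in NC 72 h and 517, 639.8 and 668 in KD 72 h. It fell by 0.39 ± 0.10 at 24 h (adjusted p = 0.015), with 5 of 6 KD libraries below every NC library, and by 0.43 ± 0.09 at 72 h (adjusted p = 0.0051), without overlap.

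Etfdh measured 119, 137 and 143 in NC 24 h and 61.5, 95.8 and 132 in KD 24 h. The later samples measured 129.7, 132, 113, 128 and 124 in NC and 64.4, 74.0 and 102 in KD. It fell by 0.52 ± 0.15 at 24 h (adjusted p = 0.025), a call lost without KD 24 h replicate 1 or NC 24 h replicate 1 or 3, and by 0.67 ± 0.12 at 72 h (adjusted p = 0.0017), where the groups were separate. The log2 ratio of Etfa to Etfb differed between KD and NC by 0.08 at 24 h (exact permutation p = 0.63) and by -0.47 at 72 h (exact permutation p = 0.0043, 0.0058 after adjustment over the 4 ratio comparisons). All KD 72 h libraries lay below all NC 72 h samples in this ratio. Within the larger cluster alone the 72 h difference was -0.51 (exact permutation p = 0.057, 4 against 3 samples). The ratios of both complexes were formed after the values of their genes had been seen.

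The auxiliary enzymes, which bring the double bonds of unsaturated fatty acids into a form the cycle accepts, gave few calls. None of Eci1, Eci2 and Decr1 was called by limma at 24 h (-0.07, 0.00 and -0.20), and none of the 3 had an unadjusted p under 0.05. At 72 h Eci2, an enoyl-CoA isomerase, fell by 0.30 ± 0.10 (adjusted p = 0.049), a call that 9 of the 12 fits without 1 library ended. The isomerase Eci1 gave -0.34 (adjusted p = 0.061) and the dienoyl-CoA reductase Decr1 -0.21 (adjusted p = 0.24).

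The acyl-CoA thioesterases, which release free fatty acids from coenzyme A, went in different directions. Acot13, a small thioesterase associated with mitochondria, measured 220.4, 245 and 259 in NC 24 h and 131, 149 and 167 in KD 24 h. The 72 h values were 333, 266, 262, 235 and 280.2 in NC and 135, 148 and 164 in KD. It was separate at both times, with log2 fold changes of -0.69 ± 0.09 at 24 h, the smallest adjusted p of the members there (0.0003), and -0.88 ± 0.10 at 72 h (adjusted p = 3.9e-05). Acot1, the cytosolic form, was the 1 member that rose: it held 3.08, 1.70, 1.02, 0.713 and 1.16 in NC 72 h and 4.05, 5.95 and 9.20 in KD 72 h, an increase of 2.05 ± 0.34 (adjusted p = 0.00088). It reached 10 reads in 6 of 6 KD 72 h libraries and in 2 of 6 NC 72 h libraries, and so passed the filter through the group in which it was high. At 24 h its value was 0.49 ± 0.36 (adjusted p = 0.34). Acot2, the mitochondrial form, held 487, 424, 488, 584 and 440.1 in NC 72 h and 175, 427 and 589.9 in KD 72 h and was not called (-0.46 ± 0.30, adjusted p = 0.31), nor at 24 h (-0.11). Acot1 and Acot2 are close paralogs whose reads may be split between them, so both values are uncertain.

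The knockdown effect at 72 h was set against that at 24 h with an interaction term. By limma 0 of 29 members passed (0.267% of 12711 genes did), while 6 had an unadjusted p under 0.05 (Eci2, Acadm, Acot1, Cpt1a, Etfa and Acaa2). Among all 59375 entries in this fit, 6972 had an unadjusted p under 0.05. The 8 members that were called lower at 72 h and not at 24 h (Acadl, Acadvl, Acat1, Cpt2, Echs1, Eci2, Etfa and Hadhb) were thus not shown to differ in their response between the times. Called lower at both times were 10 members (Acaa2, Acad11, Acad9, Acadm, Acot13, Acsl1, Etfb, Etfdh, Hadh and Hadha). The share of all genes called lower at both times is not given here, so these members are only listed.

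The fold changes were also taken within the clusters of libraries. These clusters were drawn from the levels in the same libraries. P-values within a cluster can therefore be too small, and they do not test a difference between the clusters. In the larger cluster 14 members fell at 24 h and 20 fell and 1 rose at 72 h, with medians of -0.48 and -0.77 and with 25.4% and 25.2% of all genes called. In the smaller cluster, with 4 samples per time, 1 member fell at 24 h (Acot13) and 7 fell and 1 rose at 72 h, with medians of -0.12 and -0.20 and with 2.74% and 10.8% of all genes called. The log2 fold change was lower in the larger than in the smaller cluster for 23 of 28 members at 24 h and 26 of 29 at 72 h. This difference between clusters was not tested. Within both clusters at 72 h, Acadm, Hadh, Acot13, Etfa and Hadha fell and Acot1 rose. Acsl4 and Acot2 were lower at 72 h in the smaller cluster alone, with -0.88 (adjusted p = 0.005) and -1.60 (adjusted p = 0.00017) there and 0.14 and 0.15 in the larger cluster, neither called. Hadhb, Acadl and Eci2 were negative in the larger cluster (-0.79, -0.73 and -0.47) and near 0 or positive in the smaller one (0.07, 0.13 and 0.01).

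**Figure D4:**
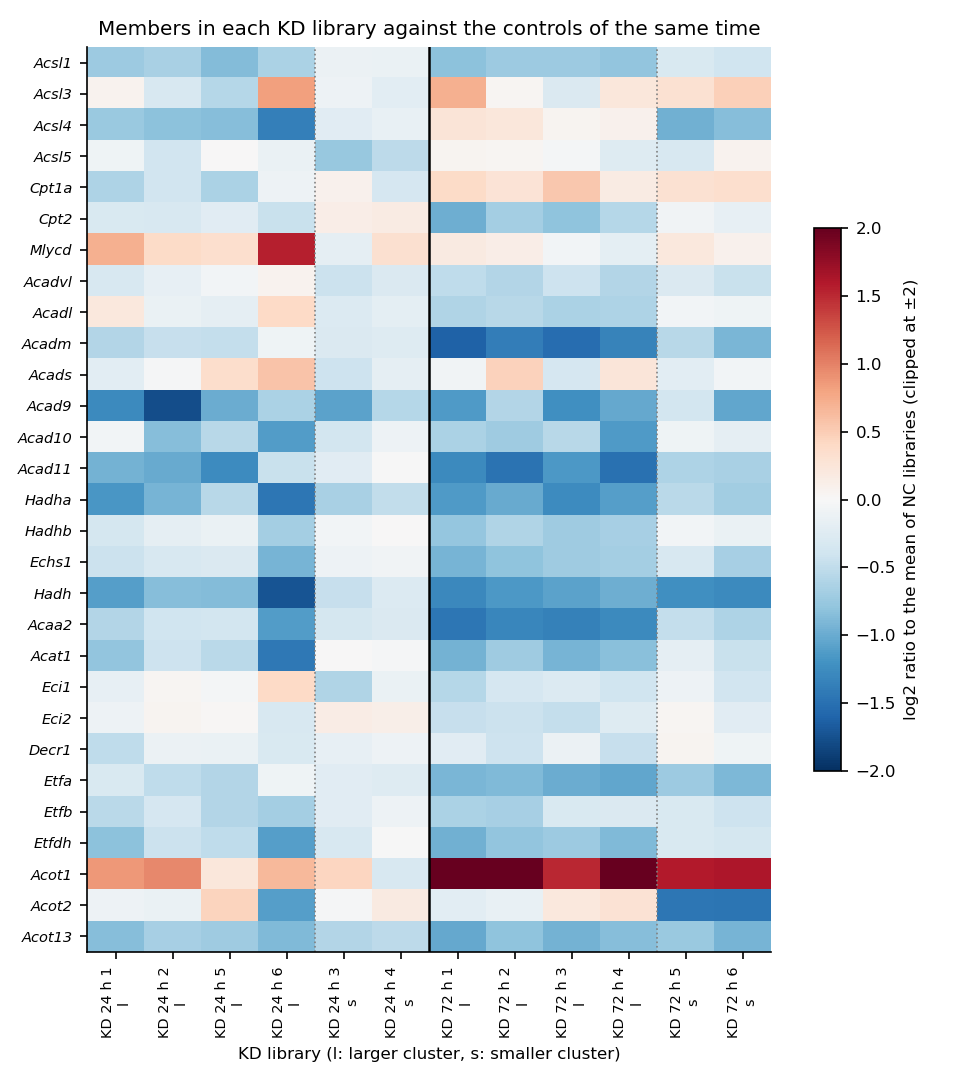
Heat map of the 29 tested members (rows) in each KD library (columns), as the log2 ratio to the mean of the NC samples of the same time, with blue below and red above the controls and colours clipped at ±2; the solid line separates 24 h from 72 h and dotted lines separate the larger from the smaller cluster of libraries. At 72 h Acadm and Acaa2 are bluest in replicates 1 to 4, Acsl4 and Acot2 in replicates 5 and 6, and Acot1 is red in every library. Among the KD 24 h libraries, replicate 6 is the bluest for Hadh and Hadha and the least blue for Acadm and Etfa.

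Over time in the control, 3 of 28 tested members rose and 2 fell from NC 24 h to NC 72 h, that is 17.9% of the members called against 9.20% of 11260 genes, 5.00% higher and 4.20% lower, and the median log2 fold change was 0.05. Hadhb rose by 0.53 ± 0.10 (adjusted p = 0.0025) and Acaa2 by 0.53 ± 0.09 (adjusted p = 0.0013), both with every NC 72 h sample above every NC 24 h library. Decr1 rose by 0.42 ± 0.11 (adjusted p = 0.025), from 65.3, 76.1 and 86.4 to 112, 113, 93.5, 79.2 and 108, a call lost without NC 24 h replicate 5 or 6 or NC 72 h replicate 1 or 6. Cpt1a fell by 0.52 ± 0.12 (adjusted p = 0.013), from 11.8, 12.6 and 13.5 in NC 24 h to 10.6, 9.22, 8.41, 7.75 and 7.97 in NC 72 h, and Etfb by 0.44 ± 0.06 (adjusted p = 0.00044), both without overlap. Acsl1 was not called by its RefSeq entry (-0.26 ± 0.08, adjusted p = 0.071), the least negative of its 11 entries tested. Of these 11 entries, 8 were called lower, and their median was -0.40. In the same interval Ucp1, the uncoupling protein, increased by 2.49 ± 0.24 (log2, adjusted p = 3.6e-05). Since NC 24 h and NC 72 h also serve as the controls of the knockdown comparisons, the comparisons share samples and are given side by side only.

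**Figure D5:**
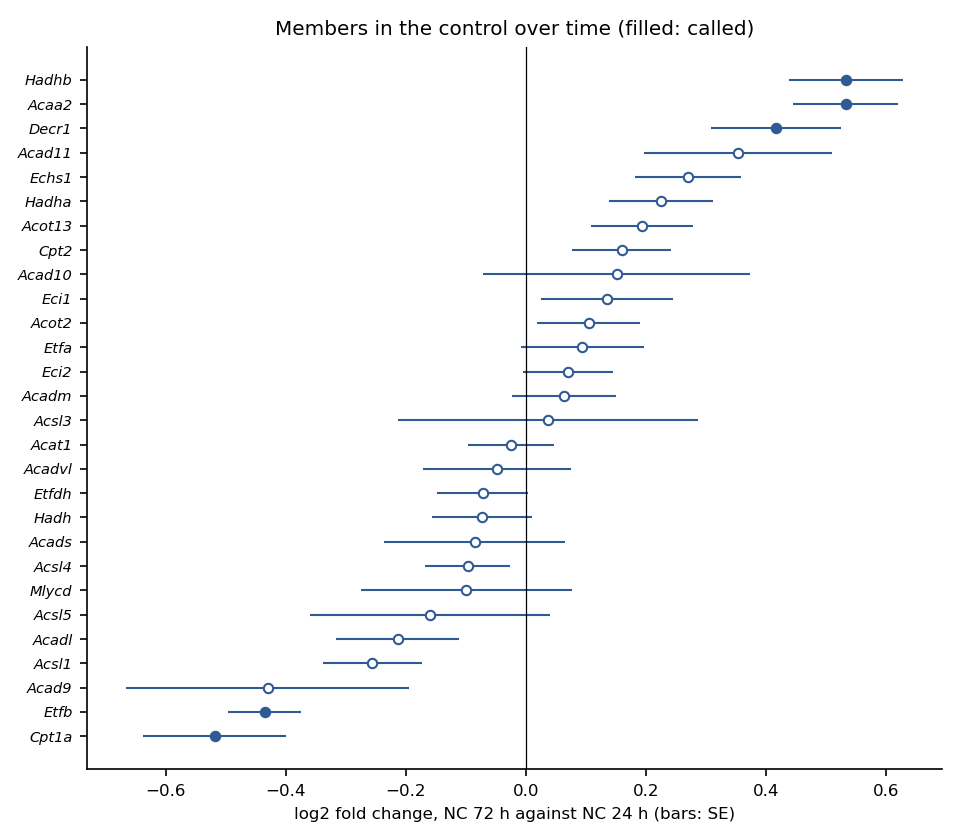
Log2 fold change of the 28 tested members between NC 72 h and NC 24 h (x axis, bars are SE), ordered by size, with called members filled. Hadhb, Acaa2 and Decr1 lie right of 0 and Cpt1a and Etfb left of it, and the other 23 members have open symbols.

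Other genes of the same pathway were counted from lists that hold no member. Among 17 further genes of mitochondrial fatty acid handling, 3 of 13 tested fell at 24 h and 3 of 14 at 72 h, and 0 rose, against 11.6% and 12.9% of all genes called lower. Cpt1b, the muscle and brown fat form of the outer membrane transferase, held 65.5, 73.2 and 93.4 RPKM in NC 24 h and 32.8, 44.9 and 59.9 in KD 24 h. It fell without overlap by 0.75 ± 0.15 (adjusted p = 0.004), and by 0.90 ± 0.15 at 72 h (adjusted p = 0.00088). The carnitine carrier Slc25a20 gave -0.31 (adjusted p = 0.097) and -0.27 (adjusted p = 0.069). The thioesterase Acot9 fell at both times, by 1.22 ± 0.31 (adjusted p = 0.012) and by 0.85 ± 0.16 (adjusted p = 0.0016).

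Of the transcriptional regulators of the pathway, 4 of 9 tested fell at 24 h and 3 of 9 at 72 h, and none rose. Of all genes, 11.6% and 12.9% were called lower at these times. Ppara, the fatty acid sensing nuclear receptor, held 4.93, 6.33 and 8.22 RPKM in NC 24 h and 3.14, 3.45 and 4.69 in KD 24 h, and fell by 0.80 ± 0.18 (adjusted p = 0.007). At 72 h it fell by 1.42 ± 0.25 (adjusted p = 0.0012). Its partner Rxra fell by 1.08 ± 0.24 (adjusted p = 0.0065) and by 1.35 ± 0.27 (adjusted p = 0.0031). The coactivator Ppargc1a was not called at 24 h (-0.73 ± 0.26, adjusted p = 0.057) but dropped by 1.27 ± 0.23 at 72 h (adjusted p = 0.0016), and the oestrogen-related receptor Esrra gave -0.49 and -0.46, not called at either time. The brite markers, a list that also holds Ppargc1a, are set against the same shares of all genes. Of 5 brite markers tested, 4 fell at 24 h and 5 at 72 h, among them Ucp1. It fell by 1.15 ± 0.24 at 24 h (adjusted p = 0.0049) and by 2.37 ± 0.21 at 72 h (adjusted p = 8.2e-06).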

How the data were processed

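As the labels and methods describe, RNA of 24 samples of differentiating brite adipocytes was turned into cDNA with barcoded oligo-dT primers, tagmented, and sequenced from the 3′ ends of transcripts. Read mapping by the authors used the Genomatix suite, and they tested RefSeq transcripts with DESeq2; the genome build for these libraries and the handling of strand are not given in the sources used here. The deposited table holds RPKM as the authors computed it, for 168326 RefSeq, Ensembl and GenBank entries, and overlapping entries of a gene share reads. All per-sample columns were mapped to samples by their titles.

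RPKM rises in steps worth 1 read. Mapped reads per library were recovered from these steps, with 95.1% to 95.7% of low values within 0.1 of a whole read number. Intervals and floors cover counting error only. A fit took the entries with at least 10 reads (at the depth of the median library) in a number of samples equal to the smaller group, and at least 15 reads overall. For each comparison libraries were brought to one scale with the trimmed mean of their log ratios (30% of log ratios and 5% of levels trimmed), and log2(scaled RPKM + 0.1) was fitted with lmFit and eBayes with a trend in limma 3.58.1 (R 4.3.3). Fold changes on this scale understate the change of low genes. Tests were two-sided with Benjamini-Hochberg adjustment over all entries, and an adjusted p under 0.05 made a call. Counts over genes use 1 RefSeq-first entry per symbol. The fit was tested on simulated data before use. Levels printed per sample were scaled over all groups together. The ratios of partner genes and Ctcflos were compared by two-sided exact permutation tests.

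The 30 members, the other gene lists and the tests were chosen with earlier results of these data known. Full values were given for the 10 called members with the largest change per comparison. Alternatives covered the scaling, filter, pseudocount, entry choice, clusters of libraries, the replicate number as a block, and leaving out each library. Mean correlations of deviations between libraries with the same replicate number were -0.11 (KD and NC 24 h), 0.03 (KD and NC 72 h) and 0.05 (NC 72 h and NC 24 h), so the numbers were not taken to pair the samples.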

Additional observations from a re-analysis of the deposited data

Results flagged for a closer look

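In each group of samples the highest and lowest level of 29 members was compared with the nearest of the other samples by Dixon's criterion. Of 116 member and group pairs, 4 had a sample far from the others. This is no more than chance alone would mark, at about 1 in 20 groups. In KD 24 h, replicate 6 was highest for Acsl3, at 8.19 scaled RPKM against 3.06 to 4.79 in the other libraries, and for Mlycd, at 49.5 against 14.7 to 27.4. In NC 24 h, Acsl4 was highest in replicate 6, at 89.4 against 82.5 to 84.0. In NC 72 h, Acad9 reached 5.42 in replicate 6 against 2.54 to 2.78 in the other samples, and without this library the fall of Acad9 at 72 h had an adjusted p of 0.051 by limma. KD 24 h replicate 6 was the library with the fewest mapped reads, 1391829.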

How the results depend on the processing

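For the 35 called fold changes of single members, 899 values were computed under alternatives: 797 kept direction and call, 99 kept direction without passing the threshold, and 3 changed sign, all at 72 h in the smaller cluster (Hadhb 0.069, Acadl 0.13, Eci2 0.011, none called). The number of called members moved from 11 to 1 in the smaller cluster at 24 h. At 72 h it moved from 19 to 11 without scaling and to 8 in the smaller cluster. For NC over time it moved from 5 to 3 with the replicate block and to 9 with the cluster as a covariate. For the interaction it moved from 0 to 1 without scaling, 2 in the larger cluster, 2 in the smaller cluster and 1 with the cluster as a covariate. Leaving out 1 library gave 8 (without KD 24 h replicate 1) to 14 (without KD 24 h replicate 3) called members at 24 h, 15 (without NC 72 h replicate 6) to 20 (without KD 72 h replicate 5) at 72 h, 4 to 6 over time and 0 to 1 in the interaction, the last without KD 72 h replicate 5. With the replicate number as a block, 8 members fell at 24 h, 13 fell and 1 rose at 72 h, 2 rose and 1 fell over time, and 0 passed in the interaction. The cause of these changes was not tested. For the ratio of Etfa to Etfb at 24 h, chosen with its alternatives after seeing the data, the difference was -0.021 without KD 24 h replicate 6 and -0.0010 without NC 24 h replicate 5. Depth limits Acot1, Acad9 and Acad10, with means under 50 reads.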

Other observations

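Peroxisomes run their own fatty acid oxidation beside the mitochondrial pathway. Of 18 peroxisomal genes tested, 3 fell and 0 rose at 24 h, and 6 fell and 2 rose at 72 h. Of all genes, 11.6% were called lower at 24 h, and 12.9% were called lower and 10.3% higher at 72 h. Changes are given as log2 fold changes ± SE, tested by limma. The fatty acid importer Abcd3 fell at both times, by 0.68 ± 0.18 (adjusted p = 0.015) and 0.95 ± 0.15 (adjusted p = 0.00066), and Phyh, which starts the breakdown of branched chains, by 0.41 ± 0.14 and 0.72 ± 0.17. Crot, the peroxisomal carnitine octanoyltransferase, rose at 72 h by 1.03 ± 0.11 (adjusted p = 3.6e-05), from 19.1 to 25.4 RPKM in NC 72 h to 37.4 to 47.3 in KD 72 h, without overlap. Outside the peroxisome, Oxct1, the mitochondrial enzyme that uses ketone bodies, fell at 72 h by 0.74 ± 0.16 (adjusted p = 0.0043).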
